A study of Mus musculus with 4 samples.

Results

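The genes described here are those of the mouse major histocompatibility complex (MHC) and of the machinery that cuts, carries and loads the peptides that MHC molecules display. They were taken as all rows of the deposited expression table with a symbol beginning with H2-, which is the name of the mouse MHC, plus a list of named processing genes, and they came to 39 of 16442 rows. The 39 were 25 H2- rows, all on chromosome 17 between 33974659 and 37274484 (GRCm38), and 14 processing genes. Ciita, the class II transactivator, was sought by the same rule and is not analysed here. By role the rows were 2 classical class I heavy chains, 11 non-classical class I heavy chains, 4 class II presenting chains, 6 class II chaperones, 9 peptide-loading genes, 3 immunoproteasome subunits and 1 regulator. A further 2, H2-K2 and H2-T-ps, were annotated as unprocessed pseudogenes, and 1, H2-Ke6, encodes a hydroxysteroid dehydrogenase and no MHC chain. H2-Q5 and H2-T10, counted here among the 11 non-classical rows, are annotated as polymorphic pseudogenes.

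The samples were poly(A) RNA of bone marrow leukaemia stem cells of C57BL/6 mice with leukaemia, 2 libraries from wild-type animals (WT) and 2 from animals labelled as an Rreb1 knockout (KO), which removes a zinc-finger transcription factor. The genotype label of KO replicate 2 names Rreb2, and the extraction text names tumour-associated macrophages, so groups follow the sample titles. The sources used here do not give the age and sex of the mice, how the leukaemia was induced, how the cells were sorted, the deleted part of the gene, or whether a library is 1 mouse or a pool. The p-values below measure only the spread between these libraries. Depth was 16590830 to 18451251 assigned reads. Rreb1 itself was at 5.24 and 6.57 FPKM (a count of fragments divided by exonic length and by library depth) in WT and at 6.10 and 6.93 in KO, so the transcript level did not separate the groups, and KO and WT below stand for the labels. Markers of leukaemic progenitors were present in all libraries, with Hoxa9 at 28.9 to 35.8 FPKM and Elane, a granulocyte precursor gene, at 5204 to 7205. Of the 7 markers 0 passed the adjusted threshold in limma, but some separated the groups. Kit was at 3.65 and 4.25 FPKM in WT and at 7.36 and 7.15 in KO (limma adjusted p = 0.051, limma-voom 0.00061). Cd34 was at 68.3 and 71.5 in WT and at 50.5 and 49.8 in KO (limma 0.065, limma-voom 0.0076), and Mpo, myeloperoxidase, at 399 and 309 against 192 and 166 (limma 0.053, limma-voom 0.00029). The part of these differences in the results below was not tested. The library titles name stem cells, and these levels are the only check of that name made here.

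As background, class I molecules sit on nearly all nucleated cells and show peptides from inside the cell to CD8 T cells. Each is a heavy chain paired with beta-2 microglobulin (B2m). Peptides are cut by the proteasome, carried into the endoplasmic reticulum by the transporter TAP and fitted by a loading complex of tapasin, calreticulin and ERp57. Class II molecules belong to dendritic cells, B cells and macrophages and show peptides from outside to CD4 T cells. They are assembled on the invariant chain (Cd74), whose last fragment is exchanged for a peptide by H2-DM, which H2-O in turn inhibits. C57BL/6 mice carry the b haplotype, which lacks a working H2-Ea gene, so their only complete class II molecule is I-A, made of H2-Aa and H2-Ab1.

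Levels ranged widely among the members, as the plot of all members by library shows. B2m was at 2057 to 2208 FPKM and H2-D1 at 993 to 1529, while H2-Q1 did not exceed 0.303. Of the 39 members 32 had a mean of at least 1 FPKM over the 4 libraries and were tested. The other 7, H2-Q1, H2-Q4, H2-Q10, H2-Aa, H2-Eb1, H2-Eb2 and H2-Ke6, were below that level and are given as values only.

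**Figure D1:**
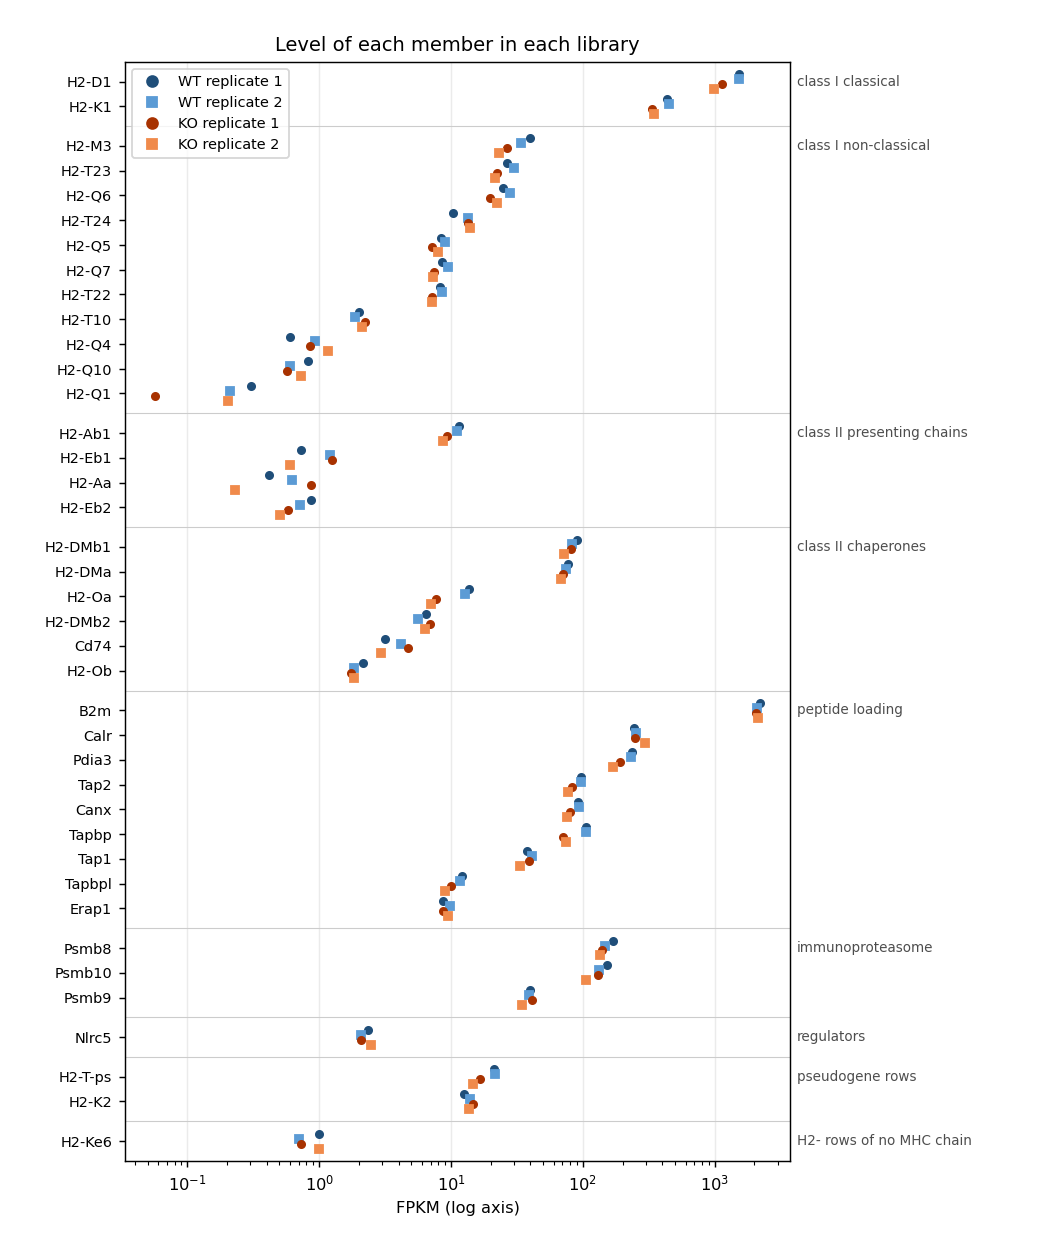
FPKM of all 39 members on a log axis, 1 point per library (circles replicate 1, squares replicate 2; blue WT, orange KO), grouped by role. B2m and H2-D1 stand at 993 FPKM or above in each library, H2-DMa and H2-DMb1 between 67.6 and 90.8, and H2-Aa at or below 0.872.

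Across the 32 tested members 2 fell in KO and 0 rose. They were H2-Oa, the alpha chain of the class II inhibitor H2-O, and Tapbp, which encodes tapasin (limma, Benjamini-Hochberg adjusted p below 0.05 over 11768 tested genes). The 2 are 6.25% of the tested members, where the same rule called 0.408% of all tested genes lower and 0.603% higher. An unadjusted limma p below 0.05 was found for 14 members, all lower in KO. That is 43.8% of the tested members, against 9.35% of all tested genes lower and 11.4% higher. For 21 members (65.6%) the higher KO library was still under the lower WT library, and for 1, H2-T10, KO was above WT in the same sense. Among all tested genes 24.9% had KO below WT without overlap and 30.5% KO above it. The log2 fold change was below 0 for 25 of the 32 members, against 46.0% of all tested genes. The median log2 fold change was −0.20 over the members and 0.03 over all tested genes. The members were chosen with earlier results of these data known, so these counts describe them and test nothing about the list. Cell material was bulk, so fewer cells of a type and less RNA per cell cannot be told apart.

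**Figure D2:**
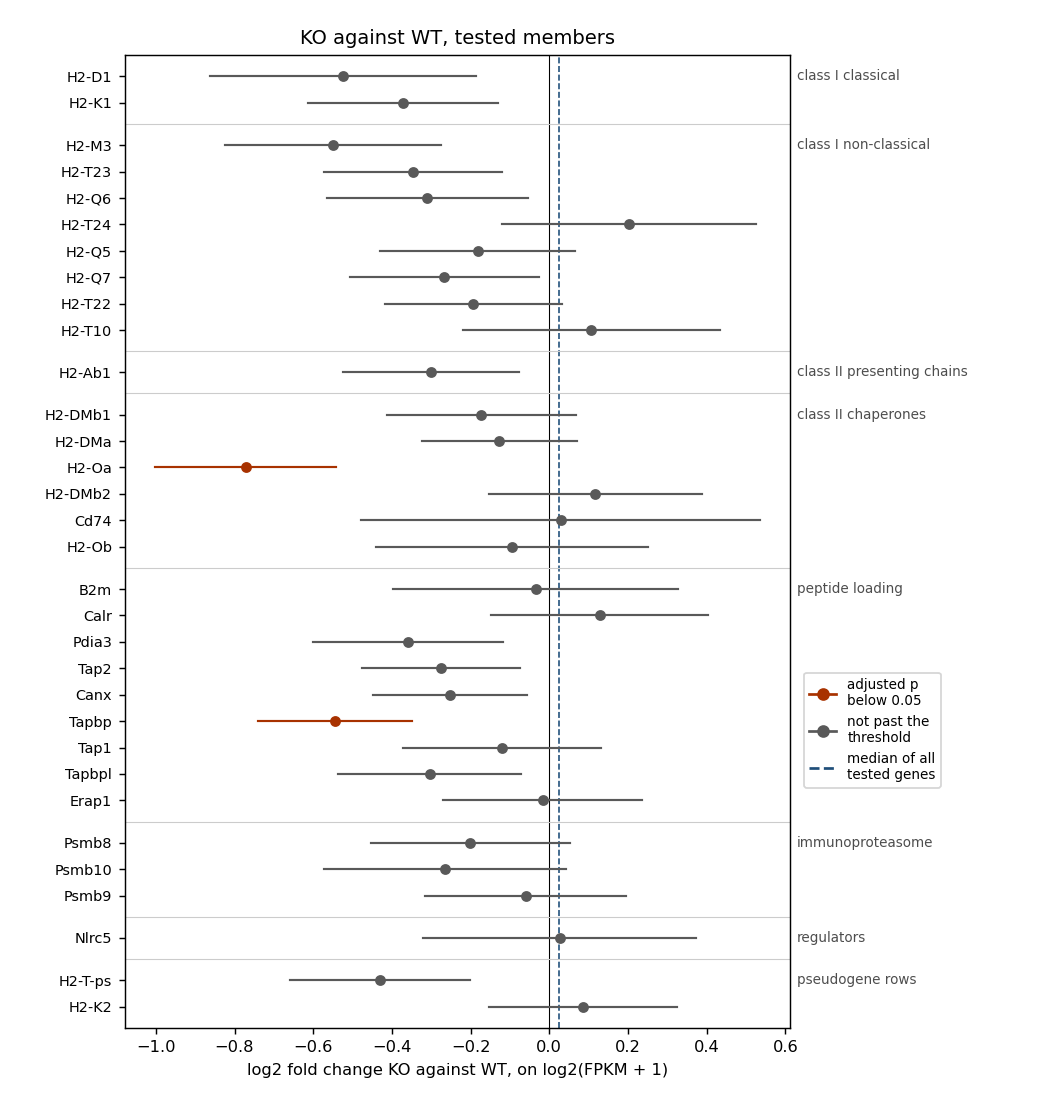
Log2 fold change of KO against WT on the log2(FPKM + 1) scale for the 32 tested members, with 95% limits from limma, grouped by role. H2-Oa and Tapbp, in red, passed the adjusted threshold. The dashed line is the median of all tested genes, 0.03, and 25 of the 32 points lie below 0.

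The classical class I heavy chains H2-D1 and H2-K1 were the most abundant MHC transcripts, and both were lower in both KO libraries without passing the adjusted threshold. They present peptides to CD8 T cells. H2-D1 (chromosome 17, plus strand) stood at 1529 and 1525 FPKM in WT and at 1134 and 993 in KO. The log2 fold change was −0.52 (SE 0.14, 95% limits −0.86 to −0.19, limma adjusted p = 0.139). H2-K1 stood at 434 and 451 FPKM in WT and at 334 and 349 in KO, a log2 fold change of −0.37 (SE 0.099, adjusted p = 0.140). The groups did not overlap for either gene. In limma-voom on whole reads recovered from the table both passed (adjusted p = 0.0062 for H2-D1 and 0.027 for H2-K1). That test called 6 members lower (H2-D1, H2-K1, H2-M3, H2-Oa, Tapbp and Pdia3) and 0 higher, where it called 2.99% of 11365 genes lower and 4.41% higher.

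The 2 classical genes made up 92.6% to 93.8% of the summed FPKM of the 13 class I heavy chain rows. That sum was 2092 and 2112 FPKM in WT and 1576 and 1450 in KO, a ratio of KO to WT means of 0.72. B2m, the shared light chain, stood at 2208 and 2089 FPKM in WT and at 2057 and 2137 in KO. Its groups overlapped, with a log2 fold change of −0.03 (95% limits −0.40 to 0.33, limma adjusted p = 0.911). The ratio of B2m to the summed heavy chains was 1.06 and 0.989 in WT and 1.31 and 1.47 in KO. This ratio was higher in KO without overlap, and the exact two-sided permutation p of 0.333 is the smallest that 2 libraries against 2 can give. The ratio of H2-D1 to H2-K1 overlapped between the groups, at 3.53 and 3.38 in WT and 3.40 and 2.85 in KO.

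**Figure D3:**
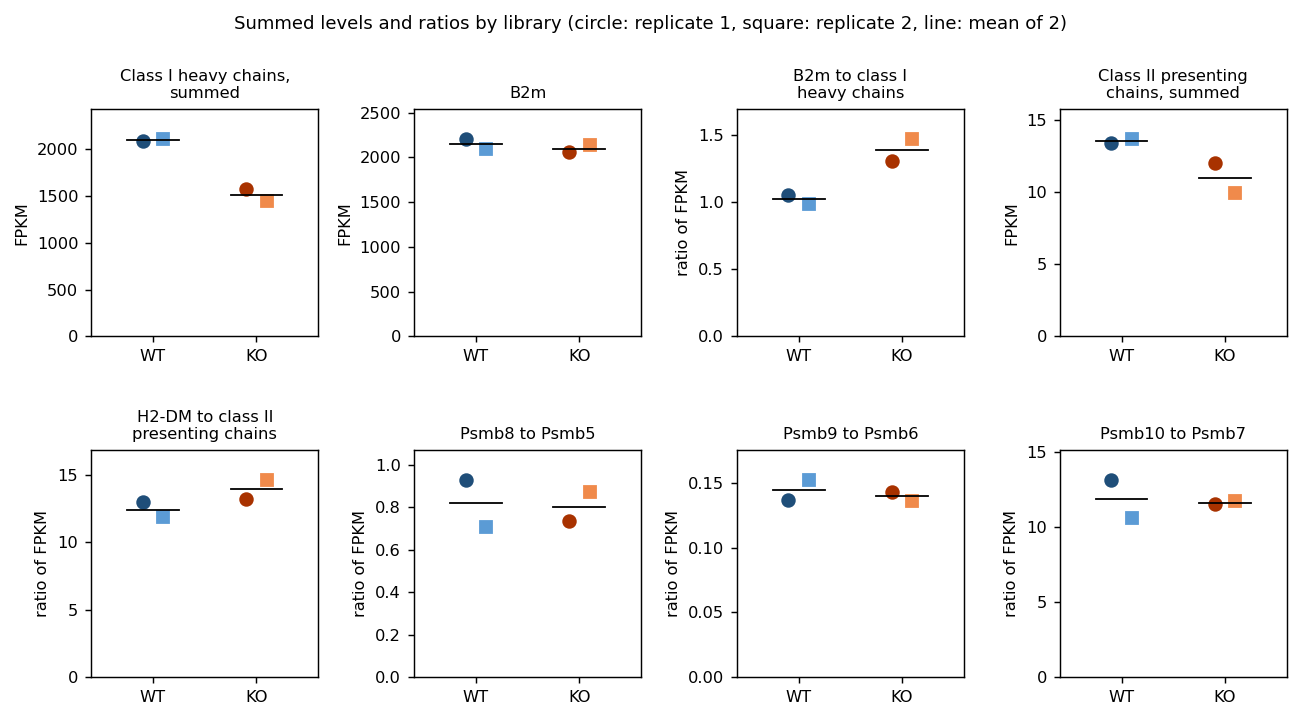
Summed FPKM or ratio of FPKM in each library, with the mean of each group as a line and each axis starting at 0. Heavy chain sums lie between 1450 and 1576 in KO and between 2092 and 2112 in WT, while B2m and the 3 proteasome ratios overlap between the groups.

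The bases ahead of the transcription start are printed for 2 heavy chains, for B2m, whose level did not separate the groups, and for H2-Oa, the member with the smallest p. They come from RefSeq (GRCm38.p6), 5′ to 3′ on the gene's own strand, and end at the first annotated exon or at the RefSeq start. The H2-Oa window runs 1 base further to complete a motif. Windows were found for 29 of the 39 members. Capitals mark matches on either strand to a kB site (GGGA, any 4 bases, then CC), the core of an interferon response element (GAA or GAAA, any 2 bases, then GAAA), a half-length cyclic AMP response element (TGACG) or a CCAAT box (CCAAT), and overlapping matches run together, as a CCAAT box and a kB site do in H2-M3. These motifs were chosen after the windows had been read.
H2-K1, chr17:34000348-34000597, minus strand: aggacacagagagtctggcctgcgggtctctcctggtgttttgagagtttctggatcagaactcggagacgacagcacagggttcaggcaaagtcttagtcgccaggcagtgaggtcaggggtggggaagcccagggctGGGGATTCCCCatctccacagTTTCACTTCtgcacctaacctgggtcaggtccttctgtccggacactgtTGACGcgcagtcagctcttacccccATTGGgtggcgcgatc
H2-M3, chr17:37269984-37270219, plus strand: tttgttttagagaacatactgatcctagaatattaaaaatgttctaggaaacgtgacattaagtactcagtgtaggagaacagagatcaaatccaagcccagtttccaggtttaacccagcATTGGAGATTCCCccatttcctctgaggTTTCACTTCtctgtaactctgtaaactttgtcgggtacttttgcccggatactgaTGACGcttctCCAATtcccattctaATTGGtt
B2m, chr2:122147437-122147685, plus strand: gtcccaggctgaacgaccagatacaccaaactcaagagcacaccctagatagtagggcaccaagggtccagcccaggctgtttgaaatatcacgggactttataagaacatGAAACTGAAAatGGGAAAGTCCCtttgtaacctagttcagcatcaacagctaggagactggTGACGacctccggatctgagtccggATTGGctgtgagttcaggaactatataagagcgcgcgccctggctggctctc
H2-Oa, chr17:34092129-34092340, plus strand: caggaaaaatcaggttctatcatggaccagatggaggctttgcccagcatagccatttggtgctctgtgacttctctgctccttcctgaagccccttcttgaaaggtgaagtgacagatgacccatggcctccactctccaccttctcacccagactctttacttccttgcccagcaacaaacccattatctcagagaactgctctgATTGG

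H2-D1 has the same kB stretch as H2-K1, and 30 bases around it are shown for comparison.
H2-D1, chr17:35262914-35262943, plus strand: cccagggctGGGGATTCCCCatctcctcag
Over a local alignment of 228 columns the full windows of H2-D1 and H2-K1 were identical at 206 (90.4%). H2-M3 aligned with H2-K1 over 158 columns with 63.9% identity, H2-T23 over 96 with 58.3% and B2m over only 39 with 66.7%, while for H2-Oa the alignment held no more than 16 columns. All 4 motifs occurred in the windows of B2m, H2-D1, H2-K1, H2-M3, H2-Q4, H2-Q7 and H2-T22, that is 7 of 29 member windows against 40 of 32851 RefSeq windows (0.122%). The RefSeq windows include those of the members. The motifs were chosen after the member windows had been read, and some windows are near-copies, H2-Q7 being 85.3% identical to H2-K1 where aligned. These shares therefore describe the windows and test nothing. Of the genes with all 4 motifs, H2-D1, H2-K1, H2-M3, H2-Q7 and H2-T22 lay lower in KO without overlap. The groups overlapped for B2m and H2-Q4. A link between motifs and levels was not tested. Singly, the kB site was found in 20.7% of all windows, the interferon core in 10.4%, TGACG in 20.8% and the CCAAT box in 37.4%. H2-Oa had 1 CCAAT match, printed above, and 1 kB match in the part of its window that is not printed. A match is a description of letters and not of a bound factor.

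Among the non-classical class I chains, which have narrower tasks than the classical ones, 6 of 8 tested members lay lower in both KO libraries, 4 had an unadjusted limma p below 0.05 and 0 passed the adjusted threshold. Among all tested genes 24.9% lay lower without overlap and 9.35% had such a p with a lower level. The median log2 fold change was −0.23. H2-M3, which presents N-formylated peptides of bacteria and mitochondria, stood at 39.7 and 34.0 FPKM in WT and at 26.5 and 23.1 in KO. Its log2 fold change was −0.55 (SE 0.11, limma adjusted p = 0.095), and it passed in limma-voom (adjusted p = 0.018). H2-T23 encodes Qa-1, a ligand of inhibitory receptors on natural killer cells. It was at 26.3 and 29.8 FPKM in WT and at 22.2 and 21.5 in KO, a log2 fold change of −0.35 (adjusted p = 0.141).

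The H2-Q genes, which include those of the Qa-2 antigen, had smaller differences. H2-Q6 was at 24.8 and 28.1 FPKM in WT and at 19.8 and 22.5 in KO (log2 fold change −0.31, limma adjusted p = 0.193). H2-Q7 was at 8.59 and 9.53 FPKM in WT and at 7.42 and 7.28 in KO (−0.27, adjusted p = 0.209), and H2-Q5 at 8.45 and 9.02 against 7.17 and 8.01. None of the 3 groups of values overlapped between genotypes. H2-Q4 was at 0.605 to 1.18 FPKM, H2-Q10 at 0.574 to 0.823 and H2-Q1 at 0.0569 to 0.303.

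The H2-T genes did not all lie on 1 side. H2-T22, a ligand of some gamma-delta T cell receptors, was at 8.18 and 8.51 FPKM in WT and at 7.16 and 7.19 in KO (log2 fold change −0.19, limma adjusted p = 0.290). Its close relative H2-T10 was at 2.01 and 1.87 in WT and at 2.22 and 2.11 in KO (0.11, adjusted p = 0.676). H2-T24 was at 10.3 and 13.5 in WT and at 13.4 and 14.0 in KO, so its groups overlapped (0.20, adjusted p = 0.419). Many of these rows share sequence. Of the 50-base stretches in H2-T22 transcripts 53.5% also occurred in transcripts of another gene, and the shares were 50.4% for H2-T10, 36.4% for H2-Q5, 35.0% for H2-Q6 and 26.5% for H2-Q7, so the split of reads among them is uncertain. The shares were 12.8% for H2-D1, 9.6% for H2-K1 and 0.6% for H2-M3. Summed over the 11 rows, non-classical chains came to 130 and 136 FPKM in WT and 107 and 108 in KO. With the H2-Q and H2-T rows left out only H2-M3 remained as a tested member, and the median became −0.55.

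The unprocessed pseudogene rows differed from each other. H2-T-ps was at 21.03 and 21.6 FPKM in WT and at 16.6 and 14.6 in KO (log2 fold change −0.43, limma adjusted p = 0.107). Of the 50-base stretches in H2-T-ps transcripts 29.4% also occurred in transcripts of another gene, and 18% occurred in those of H2-T23. The split of reads is uncertain here too. H2-K2 was at 12.5 and 14.0 in WT and at 14.6 and 13.6 in KO, with overlapping groups. H2-Ke6 was at 0.697 to 1.0003 FPKM, and 86.4% of its exonic bases lie in another annotated gene.

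Of 9 tested peptide-loading genes 1 fell and 0 rose, and the other 8 missed the threshold. Their median log2 fold change was −0.25. Tapbp, the tapasin that holds class I molecules at the TAP transporter, stood at 106 and 106 FPKM in WT and at 70.6 and 74.1 in KO. It fell by 0.54 on the log2 scale (SE 0.080, 95% limits −0.74 to −0.35, limma adjusted p = 0.0497), which is a ratio of means of 0.68. With each library left out in turn the log2 fold change stayed between −0.58 and −0.51, and the call was lost. Such a fit leaves 1 group with a single library, so this loss cannot be told apart from the loss of a replicate. The call was also lost with the replicate number as a block (limma adjusted p = 0.079), median-of-ratios scaling (0.052) and upper-quartile scaling (0.055). The same held for a pseudocount of 0.1 (0.0506) and no filter on level (0.207). It held in 2 of 11 alternatives, limma-voom (0.0033) and a filter at 5 FPKM (0.028). Exonic bases shared with other genes made up 29.0% of Tapbp. These genes were Zbtb22, at 4.27 to 7.51 FPKM, and Gm19412 on the other strand, whose level is not given here. Of the 50-base stretches in Tapbp transcripts 20.3% also occurred in Gm19412, and the library kit as described does not mark strand. The part of Gm19412 in the Tapbp values was not tested.

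Other parts of the loading complex divided into those that lay lower in KO and those that did not. Pdia3, the disulphide isomerase ERp57 that is joined to tapasin, was at 234 and 231 FPKM in WT and at 192 and 170 in KO (log2 fold change −0.36, limma adjusted p = 0.147). Canx, calnexin, which folds new heavy chains, was at 92.0 and 93.7 in WT and at 79.7 and 76.0 in KO (−0.25, adjusted p = 0.179). Tapbpl, a tapasin relative that edits peptides, was at 12.2 and 11.7 in WT and at 9.97 and 9.01 in KO (−0.30, adjusted p = 0.176). Groups did not overlap for any of these genes. Pdia3 alone among the 3 passed in limma-voom (adjusted p = 0.037). Calr, calreticulin, overlapped between the groups, at 244 and 253 FPKM in WT and 250 and 295 in KO (0.13, adjusted p = 0.544). Erap1, which trims peptides in the endoplasmic reticulum, was at 8.61 and 9.78 in WT and at 8.73 and 9.40 in KO.

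The 2 chains of the TAP transporter had unlike values. Tap2 was at 97.1 and 96.0 FPKM in WT and at 82.2 and 77.0 in KO (log2 fold change −0.28, 95% limits −0.48 to −0.08, limma adjusted p = 0.163). Tap1 was at 37.4 and 41.2 in WT and at 38.7 and 33.6 in KO (−0.12, 95% limits −0.37 to 0.13, adjusted p = 0.532). The groups overlapped for Tap1 and not for Tap2, and the limits of the 2 genes overlap. Tap1 and Psmb9 are neighbours that start from 1 stretch of DNA in opposite directions, and their exons share bases. The ratio of Tap1 to Psmb9 stayed between 0.944 and 1.06 in the 4 libraries.

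The immunoproteasome, a form of the proteasome that favours peptides fit for class I, had 0 of 3 subunits called by limma, 0 with an unadjusted p below 0.05 and 0 called by limma-voom. Psmb8 was at 170 and 146 FPKM in WT and at 140 and 134 in KO (log2 fold change −0.20, limma adjusted p = 0.323). Psmb10 was at 151 and 132 in WT and at 129 and 106 in KO (−0.26, adjusted p = 0.287). Psmb9 was at 39.4 and 38.9 in WT and at 41.0 and 34.3 in KO (−0.06, adjusted p = 0.770). Each subunit replaces a constitutive one, and the ratio of the pair did not separate the genotypes. Psmb8 to Psmb5 was 0.930 and 0.708 in WT and 0.736 and 0.869 in KO. Psmb9 to Psmb6 was 0.137 and 0.153 against 0.143 and 0.136, and Psmb10 to Psmb7 was 13.2 and 10.6 against 11.5 and 11.7. The exact two-sided permutation p was 1, 0.667 and 1, in a design that cannot go below 0.333. FPKM divides by all annotated exons, 3421 bases for Psmb7 and 899 for Psmb5, so a ratio can be compared between libraries and not between pairs.

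Nlrc5, the transactivator of class I promoters, was at 2.34 and 2.07 FPKM in WT and at 2.06 and 2.46 in KO. Its groups overlapped, with a log2 fold change of 0.03 (95% limits −0.32 to 0.37, limma adjusted p = 0.931).

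Class II presenting chains were low, and 1 of 4 reached the level needed for a test. H2-Ab1, the beta chain of I-A, was at 11.4 and 11.2 FPKM in WT and at 9.34 and 8.64 in KO (log2 fold change −0.30, 95% limits −0.52 to −0.08, limma adjusted p = 0.168), with groups that did not overlap. Its partner H2-Aa was far lower, at 0.414 and 0.619 FPKM in WT and at 0.872 and 0.232 in KO, from 29, 39, 61 and 15 reads. The ratio of beta to alpha chain FPKM ran from 10.7 to 37.3. H2-Eb1 was at 0.725 and 1.21 in WT and at 1.26 and 0.604 in KO. H2-Eb2, a further E beta gene, was at 0.863 and 0.711 in WT and at 0.576 and 0.502 in KO. Summed class I heavy chains were 131 to 156 times the summed class II presenting chains in the 4 libraries.

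Cd74, the invariant chain, was at 3.16 and 4.16 FPKM in WT and at 4.69 and 2.94 in KO (log2 fold change 0.03, limma adjusted p = 0.947). H2-Aa, H2-Eb1 and Cd74 had the same order of libraries, with KO replicate 2 lowest, then WT replicate 1, WT replicate 2 and KO replicate 1. H2-Ab1 did not follow it. In exact 95% Poisson limits, which cover counting error only, H2-Aa in KO replicate 1 (0.667 to 1.12 FPKM) and in KO replicate 2 (0.130 to 0.382) did not overlap. The same held for Cd74, at 3.96 to 5.52 and 2.34 to 3.64. For H2-Eb1 the limits of KO replicate 1 (0.917 to 1.68) and KO replicate 2 (0.369 to 0.933) overlapped. The WT values of all 3 genes lay between the KO values. This order was noticed after the values were seen.

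**Figure D4:**
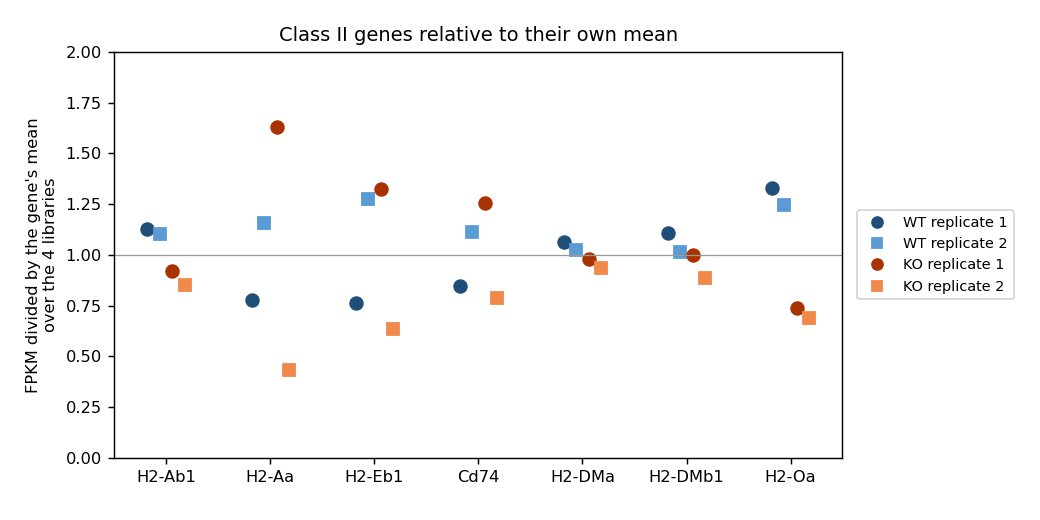
FPKM of 7 class II genes in each library divided by the gene's own mean over the 4 libraries. KO replicate 1 is highest and KO replicate 2 lowest for H2-Aa, H2-Eb1 and Cd74, while KO lies below WT without overlap for H2-Ab1, H2-DMa, H2-DMb1 and H2-Oa.

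Of the chains of the peptide editor H2-DM, H2-DMa and H2-DMb1 were more abundant per length than any class II presenting chain in each library, and H2-DMb2 was below H2-Ab1. H2-DMb1 was at 90.8 and 83.0 FPKM in WT and at 81.7 and 72.4 in KO (log2 fold change −0.17, limma adjusted p = 0.362). H2-DMa was at 77.1 and 74.2 in WT and at 70.8 and 67.6 in KO (−0.13, adjusted p = 0.407). The second beta gene, H2-DMb2, was at 6.45 and 5.62 in WT and at 6.90 and 6.35 in KO. The ratio of summed H2-DM to summed class II presenting chains was 13.0 and 11.9 in WT and 13.2 and 14.7 in KO. H2-DMb1 and H2-DMb2 share sequence, with 22.7% of the 50-base stretches of H2-DMb1 found in another gene.

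H2-O, which holds H2-DM in check, had the member with the smallest p. H2-Oa was at 13.7 and 12.9 FPKM in WT and at 7.64 and 7.09 in KO, from 356, 300, 198 and 170 reads. It fell by 0.77 on the log2 scale (SE 0.094, 95% limits −1.002 to −0.54, limma adjusted p = 0.033), a ratio of means of 0.55. Its beta chain H2-Ob was at 2.14 and 1.85 FPKM in WT and at 1.76 and 1.84 in KO (−0.09, adjusted p = 0.731). The ratio of alpha to beta chain was 6.42 and 6.95 in WT and 4.35 and 3.85 in KO. With each library left out in turn the log2 fold change of H2-Oa stayed between −0.82 and −0.72. The call was lost in these fits, in which 1 group is a single library. The limma adjusted p was 0.056 with the replicate number as a block and 0.207 with no filter on level, and it was 0.0096 in limma-voom. The call held in 5 of 11 alternatives. An overlapping gene on the other strand shares 22.8% of the exonic bases of H2-Oa and is not analysed here, and the library kit as described does not mark strand.

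Over the 6 class II chaperone genes the median log2 fold change was −0.11, with 1 lower, 0 higher and 5 not passing, and it was −0.20 without KO replicate 1. The median of the 2 classical class I chains was −0.45 and that of the non-classical chains −0.23. Counts this small give no ranking of the classes.

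Marker lists of other cell types had lower sums in KO for macrophages, B cells, dendritic cells and T and NK cells, and a higher sum for erythroid cells. The B cell and dendritic cell sums were mostly Cd79b and Flt3, and other markers of these lists did not all lie lower. The macrophage markers, all 9 of the list, summed to 99.5 and 121 FPKM in WT and to 58.8 and 58.3 in KO. The 3 C1q chains, complement proteins of macrophages, fell, C1qc from 17.4 and 22.3 to 6.69 and 6.63 FPKM (limma adjusted p = 0.013). B cell markers were represented by 2 of 7 listed genes, which differed in direction. Cd79b was at 34.4 and 32.9 FPKM in WT and at 25.2 and 22.7 in KO, while Cd79a was at 1.79 and 1.82 against 3.09 and 3.71. Their sum, nearly all Cd79b, was 36.2 and 34.7 in WT and 28.3 and 26.4 in KO. The 5 dendritic cell markers analysed summed to 32.9 and 34.9 in WT and to 26.0 and 23.6 in KO, most of it Flt3, at 26.2 and 28.2 against 19.5 and 17.7. Batf3 lay the other way, at 0.204 and 0.226 FPKM in WT and 0.782 and 0.625 in KO, Ccr7 overlapped between the groups, and Xcr1 did not exceed 0.230. T and NK cell markers, 8 of 9, summed to 22.1 and 25.8 FPKM in WT and to 10.8 and 12.8 in KO. Erythroid markers, of which 5 of 6 tested rose, summed to 92.6 and 83.5 in WT and to 421 and 514 in KO. Of the marker genes analysed 0 were at 0 in every library. The part of these cell types in the differences of class I, tapasin and H2-Oa was not tested.

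Other genes of antigen presentation outside the member list were taken in 6 groups of related function, 61 of 69 listed symbols being rows of the table. Of the 56 tested 4 fell, 0 rose and 52 did not pass, a share of 7.14% lower, against 0.408% of all tested genes lower and 0.603% higher. An unadjusted p below 0.05 was found for 9 lower (16.1%) and 3 higher, against 9.35% and 11.4% of all tested genes. The median log2 fold change was −0.02. In the class II route 2 of 13 proteases and routing genes fell. Ctss, cathepsin S, which cuts the invariant chain, stood at 231 and 195 FPKM in WT and at 121 and 117 in KO (log2 fold change −0.83, limma adjusted p = 0.037). Lgmn, the asparaginyl endopeptidase, fell from 17.8 and 18.6 FPKM to 6.68 and 5.61 (adjusted p = 0.0091). Leaving out 1 library gave a log2 fold change of −0.95 to −0.71 for Ctss and of −1.54 to −1.32 for Lgmn. The call of Ctss was lost in each of these fits, and that of Lgmn without WT replicate 1 or WT replicate 2. With the replicate block the limma adjusted p of Ctss was 0.0513.

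Among class I-like genes outside the H2- rows 1 of 7 tested fell. Fcgrt, the heavy chain of the neonatal Fc receptor, which also pairs with B2m, went from 6.03 and 6.45 FPKM to 2.56 and 2.40 (log2 fold change −1.06, SE 0.11, limma adjusted p = 0.021). Without 1 library its log2 fold change was −1.10 to −1.02, and the call was lost. With the replicate block its limma adjusted p was 0.0513. Cd1d1, which presents lipids, was at 30.2 and 31.6 FPKM in WT and at 26.8 and 27.2 in KO (adjusted p = 0.250). Of 14 transcription factors of MHC promoters 1 fell, Irf8, a regulator of monocyte and dendritic cell development. It went from 34.6 and 27.4 FPKM to 16.3 and 15.3 (limma adjusted p = 0.039). Without 1 library its log2 fold change was −1.09 to −0.76, and the call was lost. Irf1, an interferon-induced factor, stood at 13.5 and 14.2 FPKM in WT and at 15.2 and 14.5 in KO (limma adjusted p = 0.558), and was picked with its values known.

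The remaining groups had 0 called genes. Of 12 tested peptidases and folding factors 3 had an unadjusted limma p below 0.05, all lower, where 9.35% of all tested genes had one with a lower level. Hspa5, the chaperone BiP, was at 438 and 428 FPKM in WT and at 324 and 280 in KO (adjusted p = 0.104), and it passed in limma-voom (0.0067). Sec61a1, of the translocation channel, was at 53.7 and 54.4 against 45.3 and 44.1. Among 7 proteasome activator and catalytic genes 0 had an unadjusted p below 0.05 and limma-voom called 0. Psme3, an activator subunit, was at 55.5 and 25.6 FPKM in WT and at 18.5 and 24.2 in KO, WT replicate 1 standing apart. Psme1, another activator subunit, was at 98.2 and 98.5 in WT and at 107 and 111 in KO. Of 3 tested co-stimulators 2 had an unadjusted limma p below 0.05, both higher in KO, where 11.4% of all tested genes had one with a higher level. For these co-stimulators limma-voom called 0. Icosl, a ligand that stimulates T cells, was at 5.37 and 5.38 FPKM in WT and at 7.10 and 6.94 in KO (adjusted p = 0.158), and Cd80 at 1.07 and 0.732 against 1.57 and 1.63 (adjusted p = 0.211). Cd86, below the level for a test, lay the other way, at 0.740 and 0.873 in WT and 0.326 and 0.417 in KO.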

How the data were processed

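Poly(A) RNA of 2 WT and 2 KO libraries was analysed. The submitters' processing notes name GRCm38, DESeq2, featureCounts, CASAVA and HISAT2 2.1.0, without roles. As deposited by the authors, the table holds 16442 genes, whose values behaved as FPKM with 1 added, and 1 was subtracted. The unit was inferred from the values: FPKM times the exonic length of GENCODE M21 (97.3% of rows matched 1 gene) was, with 1 step for each library, a whole number of reads within 0.05 for 99.0% to 99.2% of those at 30 reads or fewer. The steps gave the depths. At these depths 3 reads on 2 kb of exon are 0.0813 to 0.0904 FPKM, for counting error only. Reads were recovered in all 4 libraries for all 39 members.

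KO was compared with WT by limma 3.58.1 (R 4.3.3, trend) on log2(FPKM + 1), keeping 11768 genes whose 4-library mean reached 1 FPKM, with group as the only term (2 residual and 4.10 prior degrees of freedom), two-sided, with Benjamini-Hochberg adjustment and a threshold of 0.05. This scale understates changes of low genes. Values by library are given for called members, for the 3 most abundant members and the 2 of smallest p in each class, for the regulators, the main presenting chains, B2m, Cd74 and the immunoproteasome, and for called genes and up to 2 of smallest p in each list of other genes. Members and lists were chosen with earlier results of these data known. Alternatives were another pseudocount, filters, 2 scalings, leaving out each library, the replicate block and limma-voom on recovered reads. The fit was also run on simulated reads with known changes, but the outcome is not given here and is no check of these results. One gene that this rule would name is not reported here.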

Additional observations from a re-analysis of the deposited data

How the results depend on the processing

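The count of 2 members lower became 6 by limma-voom, 1 with median-of-ratios scaling, 1 with upper-quartile scaling, 1 with a pseudocount of 0.1 (H2-Oa in these 3, Tapbp being lost), 0 without the filter on level and 0 to 0 with each library left out. The count of members higher was 0 under all 11 alternatives of the fit. The count of 4 other antigen presentation genes lower became 0 without the filter (adjusted p = 0.230 for Ctss and Irf8, 0.188 for Fcgrt and 0.158 for Lgmn) and 0 to 1 with a library left out, and that of 0 higher became 1 by limma-voom (Cd9, a tetraspanin, named after its values were seen). Without the filter 0 genes of the whole table were called. With fewer samples 1 group is a single library, assumed to vary like the other, so a call lost there cannot be told apart from the loss of a replicate.

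The replicate number as a block left 0 members and 2 other genes lower, Lgmn and Irf8, Ctss and Fcgrt being lost. Across all genes the deviations of same-numbered libraries had a correlation of 0.009. This value cannot show whether same-numbered libraries were prepared together, nor whether some of the genes deviated together.

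For class II presenting chains the main value of −0.30 was that of H2-Ab1 alone. Without the filter the median was taken over all 4 rows and was −0.13, so the 2 values cover different genes. The median of non-classical class I was −0.55 without H2-Q and H2-T rows. That of class II chaperones ran from −0.20 to −0.090 with 1 library left out. As log2 ratios of KO to WT, summed levels then ran from −0.55 to −0.42 (classical class I), −0.34 to −0.27 (non-classical) and −0.44 to −0.17 (class II presenting), and Psmb10 to Psmb7 from −0.18 to 0.13. Non-classical chains summed without H2-Q and H2-T rows gave −0.57, and class II without chaperone chains −0.30 in place of −0.19. The sign turned with a library left out for Cd74 (−0.24 to 0.29; −0.13 without WT replicate 1), B2m (−0.074 to 0.0051), Erap1 (−0.10 to 0.066; 0.031 without KO replicate 1), Psmb9 (−0.19 to 0.066) and Nlrc5 (−0.061 to 0.11; −0.035 without WT replicate 2), none of which was called. The causes were not tested.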
